A study of Mus musculus with 8 samples.

Results

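The genes of motile cilia were followed through bulk RNA sequencing of mouse esophagus. The set held every row of the deposited count table whose symbol named an axonemal dynein heavy chain (Dnah), a dynein intermediate chain (Dnai), a dynein assembly factor (Dnaaf), a cilia and flagella associated protein (Cfap), a radial spoke protein (Rsph) or a tektin (Tekt), each followed by a number, and 10 genes given by name, namely Foxj1, Mcidas, Ccno, Lrrc23, Ttc21a, Tppp3, Hydin, Ccdc39, Ccdc40 and Spag6l. It came to 87 of the 32849 symbols listed. At least 1 count was given for 84 of them, and Dnaaf4, Dnaaf6 and Rsph6a were at 0 in every library.

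The study compared 4 libraries from mice lacking monoacylglycerol lipase (MGL KO), the enzyme that degrades the endocannabinoid 2-arachidonoylglycerol, with 4 libraries from wild-type mice (WT), to ask whether loss of the enzyme alone alters the esophagus. The deletion was global, the line was bred in-house with WT littermates, and all animals of this experiment were healthy and received no treatment. Adult mice of both sexes were used in the study, and the sex and exact age behind each library are not given in the sources used here. RNA came from frozen esophagus and was selected for poly(A) tails, so that all cell types of the tissue sample shared 1 library. Groups are given as mean ± SD of 4 libraries, and because nothing ties a library to a culture, litter or day, p-values measure the spread between these libraries.

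A motile cilium beats through axonemal dyneins, motor complexes that are built in the cytoplasm by assembly factors and then docked as outer and inner arms on the doublet microtubules of the axoneme. Radial spokes and the central pair set the rhythm of the motors, tektins run as filaments inside the doublets, and the forkhead factor FOXJ1 switches most of these genes on. Multiciliated cells line the trachea and bronchi, sperm build a related tail with some parts of their own, and the squamous epithelium of the adult mouse esophagus is not known for motile cilia.

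The 8 libraries held between 13479069 and 17090152 counts, and values are given as CPM, the counts of a gene relative to the library total, scaled by TMM factors. A gene with no count may still have up to 3 counts within counting error, which came to between 0.167 and 0.271 CPM, and this bound covers counting error only. Mgll, the targeted gene, stood at 13.7 ± 1.54 CPM in MGL KO and at 81.2 ± 9.97 CPM in WT (log2 fold change -2.57, adjusted p = 0.000133, edgeR's quasi-likelihood test), and MGL KO replicate 4 held 13.2 CPM, so every library matched its label. Squamous keratins and skeletal muscle genes were abundant in all 8 libraries, as the labelled organ has them: the summed squamous list ranged from 4800 to 17900 CPM. Within that list, Crnn had at most 1 count in any library and Rhcg had none. MGL KO replicate 4 stood apart from the other 7 libraries. In it, 374 genes were at least 10 times as high as in the highest other library (a library with fewer than 3 counts being set to 3), which was 1.65% of the 22721 genes with a count. The same was true of between 0 and 60 genes in each other library.

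Most motile cilia genes were high in MGL KO replicate 4 alone, and their sums over the other 7 libraries overlapped between the groups. Of the 84 motile cilia genes with a count, 48 (57.1%) were at least 10 times as high in MGL KO replicate 4 as in the highest other library, against 1.65% of all genes, and they made up 12.8% of the genes that met this line in that library. No motile cilia gene met it in any other library. Summed over these 48 genes, MGL KO replicate 4 held 2130 CPM. MGL KO replicates 1 to 3 held 41.7, 25.5 and 31.6 CPM, and WT replicates 1 to 4 held 27.8, 28.2, 22.9 and 29.5 CPM. The ranges of MGL KO replicates 1 to 3 and of WT thus overlapped. The genes nearest to the line were Ccno, Cfap99, Tekt3 and Cfap126 below it, at 8.51 to 9.33 times, and Cfap74, Cfap57, Dnai1 and Dnai4 just above it, at up to 14.1 times. In bulk RNA, fewer cells of a type and less RNA per cell cannot be told apart.

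**Figure D1:**
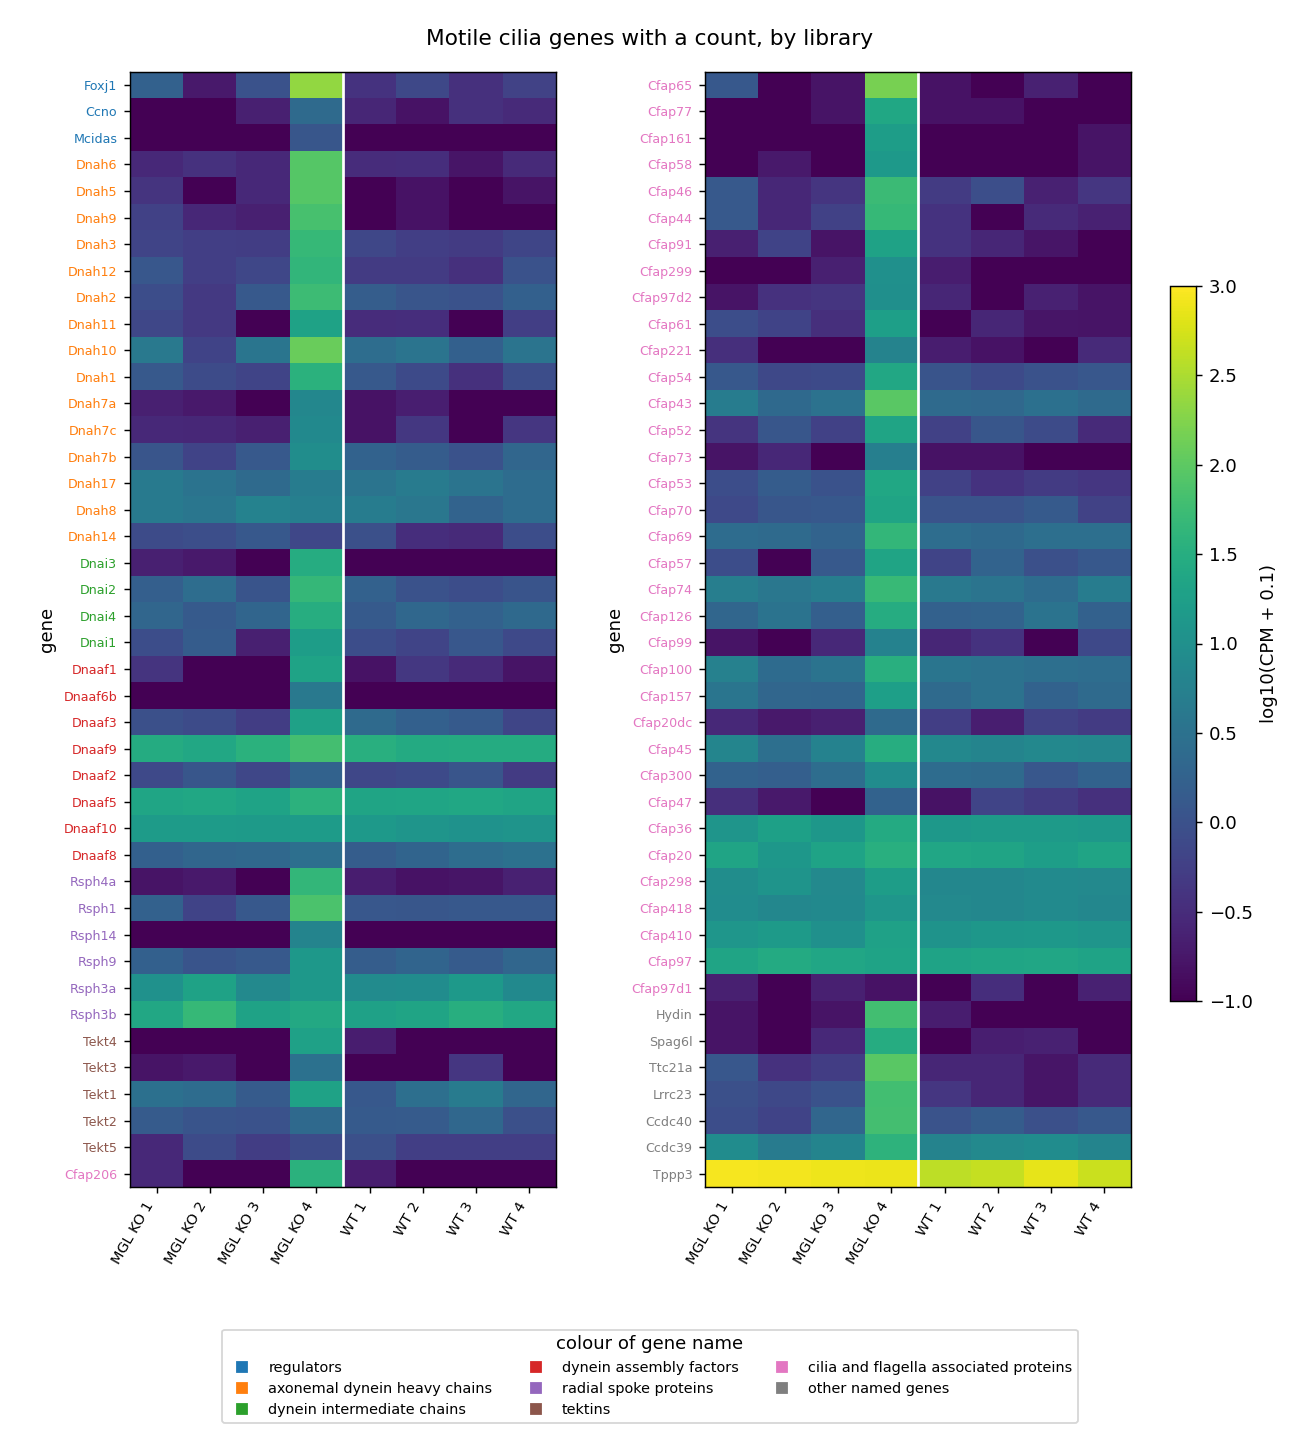
Expression of the 84 motile cilia genes with a count (rows, as log10 of CPM + 0.1, colour scale) in the 4 MGL KO and 4 WT libraries (columns), grouped by role through the colour of the gene name and ordered within a role by how far MGL KO replicate 4 exceeded the other libraries. The column of MGL KO replicate 4 is brighter than the rest for most rows, while Cfap97 runs only from 20.6 to 27.3 CPM and Tppp3 is brighter in all 4 MGL KO columns (768 to 886 CPM) than in the WT columns (405 to 712 CPM).

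Of the 3 regulators, Foxj1 alone met the 10-fold line. Foxj1 (chr11:116221530-116226225, minus strand, GRCm39) stood at 228 CPM in MGL KO replicate 4. It stood at 1.65, 0.0902 and 0.925 CPM in MGL KO replicates 1 to 3 and at 0.279, 0.628, 0.263 and 0.522 CPM in WT replicates 1 to 4. MGL KO replicate 4 was thus 138 times as high as the next library, and the other MGL KO libraries lay both above and below the WT libraries. The fitted log2 fold change of Foxj1 was 7.06 with a standard error of 2.24, and its adjusted p was 0.499, so the difference between the groups did not pass the test. Mcidas, which encodes multicilin, a coregulator that starts the multiciliated cell program, had 1.07 CPM in MGL KO replicate 4 and no count in the other 7 libraries, a level at least 3.94-fold higher than the limit of 3 counts. Ccno, a cyclin needed to amplify basal bodies, had 2.3 CPM in MGL KO replicate 4 and at most 0.263 CPM elsewhere.

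Promoters were read because the 48 genes were high together. FOXJ1 works beside the RFX factors, which bind a half-site spelled GTTGCC. Promoter windows ran from 250 bases before to 50 bases after the canonical start of each gene in GENCODE vM39, and were searched on both strands. The half-site was in 20 of the 47 windows found for these 48 genes (42.6%), in 12 of 36 windows of the other motile cilia genes with a count (33.3%), and in 12.0% of all 19348 protein-coding promoters. A pair of half-sites facing each other, spelled GTTNCC and GGNAAC with 0 to 3 bases between them, was in none of the 47, in 2.78% of the 36 and in 0.713% of all promoters. It was in 10.5% of 38 windows of intraflagellar transport and primary cilium genes, and GTTGCC is 1 of the spellings that GTTNCC allows. The forkhead spellings TGTTTAC and TGTTTGT were in 2.13% and 6.38% of the 47, against 2.95% and 6.41% of all promoters, and TGTTTGT can share its last 2 bases with GTTGCC, which occurred in 3 of all promoters and in none of the 47. In 44 windows of other motile cilia genes that the naming rule does not reach, the half-site was in 45.5%, the pair in 2.27%, TGTTTAC in 15.9% and TGTTTGT in 2.27%. The half-site was in 44.7% of the 38 windows of transport and primary cilium genes, and none of those genes met the 10-fold line. Windows are shown for 5 genes. Of the 48, 24 were named by the rule set for named genes, and 11 of the 24 held a half-site somewhere in the window. The 5 shown held a half-site wholly before the start. Cfap53, also named, held a half-site in its window, but its place relative to the start is not given here. The 5 are thus not a full count for the 24. The windows are given with up to 20 bases on each side, on the strand of the gene, 5′ to 3′, and with the half-site or its reverse complement in capitals.
Foxj1, chr11:116226313-116226358, minus strand: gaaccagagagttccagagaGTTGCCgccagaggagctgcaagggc
Cfap65, chr1:74974770-74974824, minus strand: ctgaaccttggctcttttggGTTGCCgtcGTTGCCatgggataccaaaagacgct
Dnah10, chr5:124802109-124802148, plus strand: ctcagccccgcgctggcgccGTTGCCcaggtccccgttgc
Dnah7a, chr1:53746118-53746163, minus strand: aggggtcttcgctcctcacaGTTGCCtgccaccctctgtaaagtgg
Lrrc23, chr6:124756822-124756867, minus strand: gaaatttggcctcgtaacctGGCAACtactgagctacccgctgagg
The match began 113 bases before the start in Foxj1, 20 in Dnah10, 138 in Dnah7a and 121 in Lrrc23, and Cfap65 held a pair of matches 46 and 37 bases before it. A match describes the letters only, and no binding was measured.

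Among the axonemal dynein heavy chains, the motors themselves, 11 of 15 were at least 10 times as high in MGL KO replicate 4. Their sum was 604 CPM there, against 11.8 to 19.9 CPM in the 3 remaining MGL KO libraries and 9.8 to 17.4 CPM in WT. Dnah5, the outer arm motor found along the whole cilium, had 89.1 CPM in MGL KO replicate 4. It had 0.306, 0 and 0.185 CPM in MGL KO replicates 1 to 3 and 0, 0.0571, 0 and 0.0652 CPM in WT replicates 1 to 4. The 7 other libraries thus held 10 counts of Dnah5 in all, against 1585 counts in MGL KO replicate 4. Dnah9 and Dnah11, outer arm motors of the tip and of the base of the cilium, had 68.6 and 20.3 CPM there and at most 0.49 and 0.612 CPM elsewhere. With libraries under 3 counts set to 3, Dnah6, an inner arm motor, had the largest ratio of the set. It had 87.4 CPM in MGL KO replicate 4 against 0.0657 to 0.271 CPM in the other 7 libraries, a ratio of 323. For genes with fewer than 3 counts in each of the other 7 libraries, such as Hydin, the ratio is a lower bound.

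The 4 heavy chains below the line were Dnah7b, Dnah8, Dnah14 and Dnah17. Dnah14 had 0.618 CPM in MGL KO replicate 4 and 0.197 to 1.17 CPM elsewhere. Dnah1 and Dnah2, inner arm motors that sperm tails use too, met the line, at 29.3 and 35.8 times the highest other library. Dnah8, the outer arm motor of the sperm tail, had 4.23, 3.61, 5.86 and 5.17 CPM in MGL KO replicates 1 to 4 and 4.69, 3.77, 1.78 and 2.54 CPM in WT replicates 1 to 4. Dnah17, its partner in sperm, had 4.23, 3.25, 2.28 and 4.72 CPM in MGL KO and 3.4, 4.57, 3.42 and 2.48 CPM in WT. Both genes overlapped between groups, and MGL KO replicate 4 lay within or next to the other libraries (log2 fold change 0.56, standard error 0.33, adjusted p = 0.655 for Dnah8, and 0.06, 0.30 and 0.961 for Dnah17). Per kilobase of exon, MGL KO replicate 4 held 5.7 CPM of Dnah5, 3.42 of Dnah9 and 1.41 of Dnah11, against 0.191 of Dnah8 and 0.294 of Dnah17. The 3 near-identical genes Dnah7a, Dnah7b and Dnah7c, inner arm motors, stood at 6.97, 8.94 and 7.81 CPM in that library, and because reads of one copy can be counted on another, their levels are uncertain one by one. Dnah7b alone of them was present in all other libraries, at 0.541 to 2.02 CPM.

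All 4 dynein intermediate chains, which link the motors to the doublet, met the 10-fold line. Dnai2, an outer arm chain, had 46.1 CPM in MGL KO replicate 4, 1.53, 2.62 and 0.987 CPM in MGL KO replicates 1 to 3 and 1.62, 0.913, 0.789 and 0.978 CPM in WT replicates 1 to 4. Only MGL KO replicate 4 was clear of the others (log2 fold change 3.57, standard error 1.24, adjusted p = 0.509). Dnai1, its outer arm partner, reached 16.5 CPM there and at most 1.35 CPM elsewhere. Dnai3, an inner arm chain, had 29.8 CPM in MGL KO replicate 4 and 3 counts over the other 7 libraries together.

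**Figure D2:**
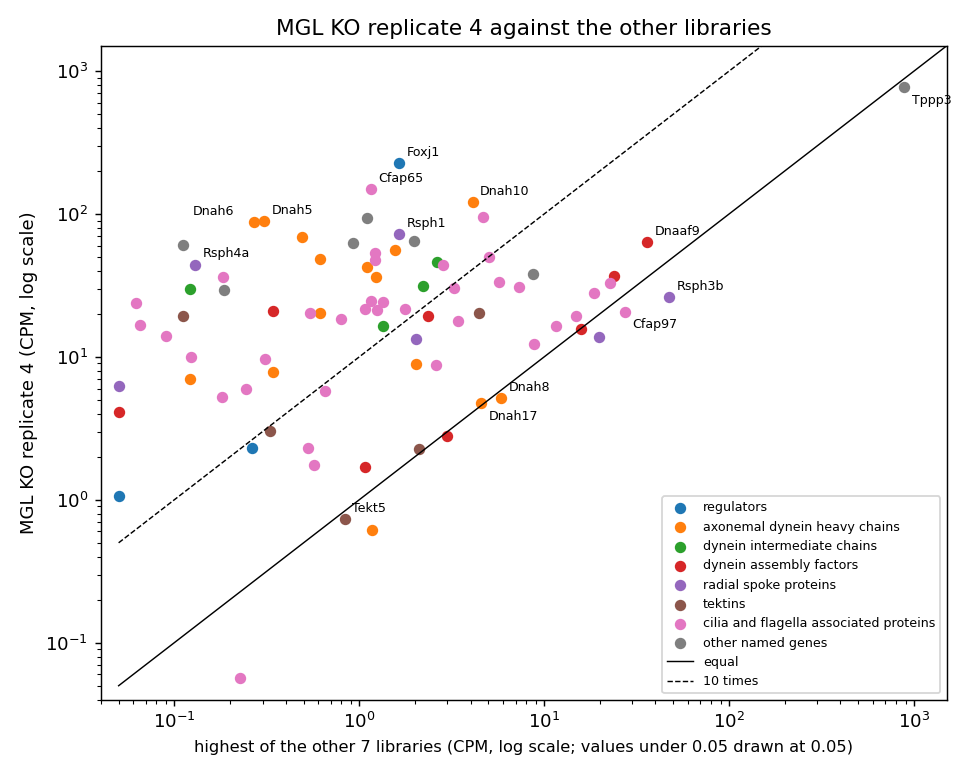
Level of each of the 84 motile cilia genes with a count in MGL KO replicate 4 (vertical axis, CPM, log scale) against its highest level in the other 7 libraries (horizontal axis, CPM, log scale), coloured by role, with lines of equal level and of a 10-fold difference. Most points lie near or above the dashed 10-fold line, with Foxj1 at 228 against 1.65 CPM, while Tppp3, Dnah8, Dnah17, Tekt5, Rsph3b and Cfap97 lie near the line of equal level.

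Of the 8 dynein assembly factors with a count, Dnaaf1 and Dnaaf6b met the 10-fold line, and the other 6 had counts in every library. Dnaaf1, needed to preassemble both arms, had 20.8 CPM in MGL KO replicate 4 and at most 0.342 CPM elsewhere, and Dnaaf3 had 19.3 CPM there and between 0.432 and 2.34 CPM elsewhere. Dnaaf6b had 4.1 CPM in that library and no count in the other 7, at least 15.2-fold higher than the limit of 3 counts. Dnaaf10 had 15.8, 15.4, 15.2 and 15.8 CPM in MGL KO and 14.1, 12.0, 10.8 and 11.8 CPM in WT. The lowest MGL KO library was thus above the highest WT library, by a small amount (log2 fold change 0.35, standard error 0.13, adjusted p = 0.523). Dnaaf9 stood at 63.3 CPM in MGL KO replicate 4 and at 25.3 to 36.1 CPM in the rest, a ratio of 1.75.

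Of the 6 radial spoke genes with a count, Rsph1, Rsph4a and Rsph14 met the 10-fold line, and Rsph9, Rsph3a and Rsph3b did not. Rsph4a, a spoke head protein of cilia, had 44.3 CPM in MGL KO replicate 4, 0.0612, 0.0902 and 0 CPM in MGL KO replicates 1 to 3 and 0.112, 0.0571, 0.0657 and 0.13 CPM in WT replicates 1 to 4. Its sperm counterpart Rsph6a had no count in any library. Rsph1, another head protein, had 72.4 CPM in MGL KO replicate 4 against 0.541 to 1.65 CPM elsewhere (log2 fold change 4.05, standard error 1.49, adjusted p = 0.523). Rsph9, a head protein as well, had 13.4 CPM there and 0.993 to 2.02 CPM elsewhere, a ratio of 6.62, and Rsph14 had 6.24 CPM there and no count in the other 7 libraries. The stalk genes Rsph3a and Rsph3b, a near-identical pair whose reads may be shared, were present in every library, at 7.52 to 19.8 and at 19.4 to 47.5 CPM. For both of them MGL KO replicate 2 was the highest library, at 19.8 and 47.5 CPM, and not MGL KO replicate 4.

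The tektins, filament proteins of the doublet, showed both patterns as well. Tekt4 had 19.3 CPM in MGL KO replicate 4 and 2 counts over the other libraries, and Tekt1 had 20.3 CPM there and between 1.17 and 4.47 CPM elsewhere. Tekt5, known from sperm tails, had 0.184, 0.722, 0.432 and 0.731 CPM in MGL KO and 0.837, 0.457, 0.46 and 0.456 CPM in WT. MGL KO replicate 4 was within the range of the other libraries for Tekt5. Tekt2 stood at 2.25 CPM in that library and at 0.848 to 2.1 CPM in the rest.

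Of the 36 cilia and flagella associated proteins, 21 met the 10-fold line. Cfap65, the most abundant of the 21 in CPM, had 150 CPM in MGL KO replicate 4, 1.16, 0 and 0.0617 CPM in MGL KO replicates 1 to 3 and 0.0558, 0, 0.131 and 0 CPM in WT replicates 1 to 4. Cfap43 and Cfap44, which tether an inner arm to the doublet, had 95.7 and 48.0 CPM there and at most 4.65 and 1.22 CPM elsewhere. Cfap53, a protein of the doublet lumen, had 24.3 CPM in MGL KO replicate 4, 0.796, 1.35 and 0.925 CPM in MGL KO replicates 1 to 3, and 0.502, 0.285, 0.394 and 0.326 CPM in WT replicates 1 to 4. It was higher in 4 of 4 MGL KO libraries than in any WT library (log2 fold change 4.16, standard error 1.24, adjusted p = 0.478). Cfap20, Cfap36 and Cfap97, the most abundant of the family in the other libraries, were at 12.9 to 22.8, 12.1 to 18.5 and 20.8 to 27.3 CPM there and at 33.0, 27.8 and 20.6 CPM in MGL KO replicate 4.

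Of the 7 remaining genes given by name, all but Ccdc39 and Tppp3 met the 10-fold line. Hydin, a giant central pair protein, had 60.4 CPM in MGL KO replicate 4 and 4 counts over the other 7 libraries together. Spag6l, another central apparatus protein, had 29.5 CPM there and at most 0.185 CPM elsewhere. Ccdc40, part of the molecular ruler that spaces inner arms and spokes, had 64.5 CPM in MGL KO replicate 4 and at most 1.97 CPM elsewhere. Its partner Ccdc39 had 38.2 CPM there and 4.51 to 8.68 CPM elsewhere, and 24.3% of its exon bases lie over Ttc14 on the other strand. Lrrc23, a radial spoke component, and Ttc21a, related to intraflagellar transport, had 62.4 and 94.5 CPM in MGL KO replicate 4. Lrrc23 had 0.857, 0.632 and 0.925 CPM in MGL KO replicates 1 to 3 and 0.335, 0.171, 0.0657 and 0.196 CPM in WT replicates 1 to 4. Ttc21a had 1.1, 0.271 and 0.432 CPM in MGL KO replicates 1 to 3 and 0.167, 0.171, 0.0657 and 0.196 CPM in WT. For both genes every MGL KO library was above every WT library, on at most 18 counts in any library but MGL KO replicate 4. Per kilobase of exon, the highest of the 48 genes in that library were Foxj1 at 72.7 CPM, Rsph1 at 47.2 CPM and Lrrc23 at 32.8 CPM.

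Tppp3 behaved in another way. It encodes a member of the tubulin polymerization promoting family, known from ciliated cells and also from sheath cells of tendon. Its level was 886, 856, 799 and 768 CPM in MGL KO replicates 1 to 4 and 405, 444, 712 and 472 CPM in WT replicates 1 to 4. Every MGL KO library was above every WT library, WT replicate 3 lay nearest to them, and MGL KO replicate 4 was the lowest of its group. The log2 fold change was 0.70 with a standard error of 0.19, and the adjusted p was 0.462. Without MGL KO replicate 4 the log2 fold change was 0.74 (adjusted p = 0.449). Tppp3 made up most of the summed motile cilia CPM outside MGL KO replicate 4. With it, the sums over all 87 genes were 1160, 1140, 1050 and 3440 CPM in MGL KO and 656, 695, 976 and 720 CPM in WT. Without it they were 279, 283, 253 and 2670 CPM in MGL KO and 251, 251, 264 and 247 CPM in WT.

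**Figure D3:**
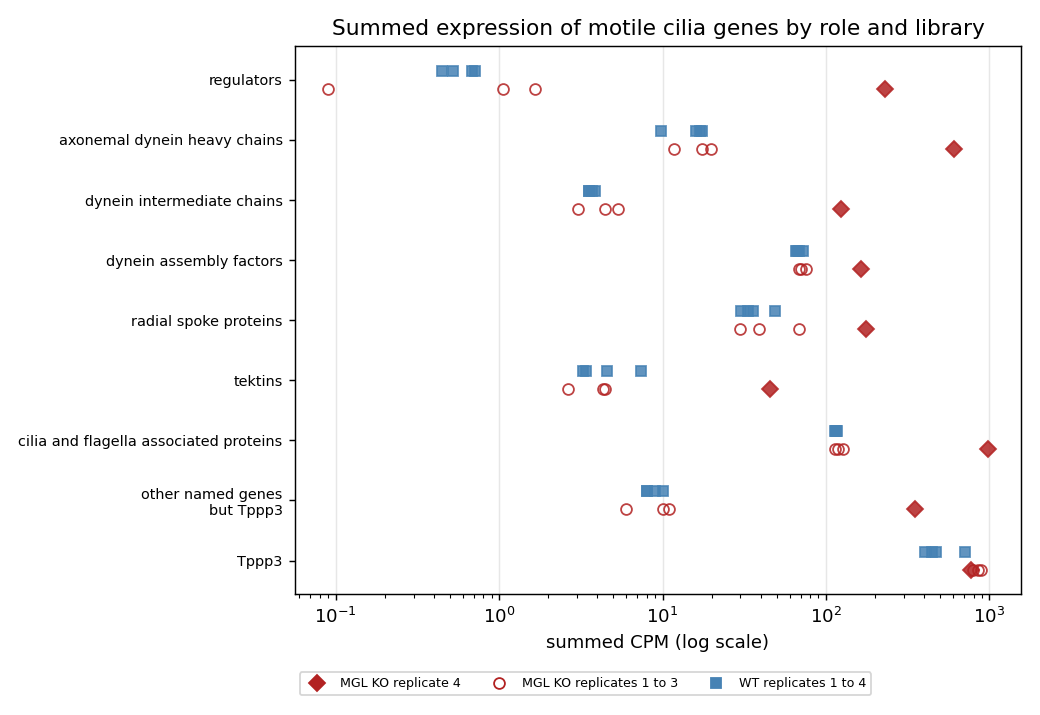
Summed CPM of the motile cilia genes by role (rows; horizontal axis on a log scale) in each library, with MGL KO replicate 4 as filled diamonds, MGL KO replicates 1 to 3 as open circles and WT as squares. MGL KO replicate 4 lies to the right of all other libraries for each role, for example 604 against at most 19.9 CPM for the heavy chains, but not for Tppp3, where it is the lowest MGL KO library.

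The group comparison asked whether the mean level of these genes differed between MGL KO and WT, and the quasi-likelihood test called none of them. Of the 87 genes, 46 passed the filter on low counts, and 18 of the 48 genes that met the 10-fold line were among them. The other 30 did not pass it: none had more than 20 counts in any library but MGL KO replicate 4, although 5 of them had a count in all 8 libraries. edgeR's quasi-likelihood test called 0 of the 46 higher and 0 lower at an adjusted p under 0.05, against 0.0202% and 0.0269% of all 14864 genes tested. The lowest adjusted p was 0.462. The fitted log2 fold change was above 0 for 44 of the 46, and for 7884 of all 14864 genes tested. Its median was 1.39 beside 0.02 over all genes tested. By the quasi-likelihood test, 20 of the 46 had an unadjusted p under 0.05, as had 1285 of all genes. The edgeR exact test, which the study's methods name without its dispersion setting, was run on all genes with a count, with tagwise dispersions drawn toward a trend over abundance. It called 0 motile cilia genes, with a lowest adjusted p of 0.0693 for Lrrc23 and Ttc21a, while it called 0.132% of all genes higher and 0.0528% lower.

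The count of calls depended on how the spread between libraries was estimated. With common and then tagwise dispersions, a setting chosen after seeing the data, the exact test called 20 of the 84 genes higher and 0 lower, against 0.638% and 0.106% of all genes. These were Foxj1, Lrrc23, Ttc21a, Hydin, Spag6l, Rsph4a, Dnai2, Dnai3, Dnah3, Dnah5, Dnah6, Dnah9, Dnah12, Cfap43, Cfap44, Cfap46, Cfap53, Cfap61, Cfap65 and Cfap206, with log2 fold changes from 3.44 to 9.89 and adjusted p from 0.00237 to 0.0463. All 20 met the 10-fold line in MGL KO replicate 4. Without that library the same setting called none of the motile cilia genes, against 0.193% of all genes called higher and 0.0717% lower, and the lowest adjusted p of the motile cilia genes was 0.165. DESeq2 called Tppp3 alone (log2 fold change 0.71, adjusted p = 0.029), against 0.539% of the genes with an adjusted p called higher and 0.396% lower. It gave no p to 23 of the 46 genes because of an outlying count, and these included all 18 tested genes that met the 10-fold line.

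Without MGL KO replicate 4 the quasi-likelihood test called no motile cilia gene, and it called 0.00667% of all genes higher and 0.00667% lower. DESeq2 without that library, a fit added after seeing the data, called Tppp3 alone again (log2 fold change 0.75, adjusted p = 0.0469), against 0.655% of genes called higher and 0.321% lower. By the quasi-likelihood test, of 46 genes tested, 28 were above 0 and 18 below, the median log2 fold change was 0.03, and none was called (lowest adjusted p 0.449, and 3 genes with an unadjusted p under 0.05, namely Cfap53, Tppp3 and Dnaaf10). The log2 fold change of Foxj1 went from 7.06 to 1.11, that of Rsph1 from 4.05 to 0.01 and that of Dnaaf3 from 1.88 to -1.11. Those of Cfap53 and Tppp3 were 1.40 and 0.74. Without a filter, the 35 genes left out above that still had a count ranged from -2.24 (Tekt4) to 3.59 (Dnah9), with 10 above 1 and 6 below -1. These rested on few counts: Dnah9 had 8, 2 and 2 counts in MGL KO replicates 1 to 3 and 1 count over the 4 WT libraries. Cfap44, Cfap61, Dnah9, Lrrc23 and Ttc21a had an unadjusted p under 0.05, and the lowest adjusted p of the 35 was 0.614. With all 8 libraries, the groups did not overlap for 3 of the 46 genes, Cfap53, Dnaaf10 and Tppp3, with MGL KO on the higher side, against 2.72% of all genes tested. MGL KO was on the lower side for none of them, against 3.3%. Over the 84 genes with a count, filtered or not, MGL KO was on the higher side without overlap for 7, which adds Lrrc23, Ttc21a, Dnah9 and Cfap61, against 2.07% of all genes with a count, and on the lower side for 0, against 2.5%. In MGL KO replicates 1 to 3 and WT these 4 genes had at most 18 counts in a library.

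**Figure D4:**
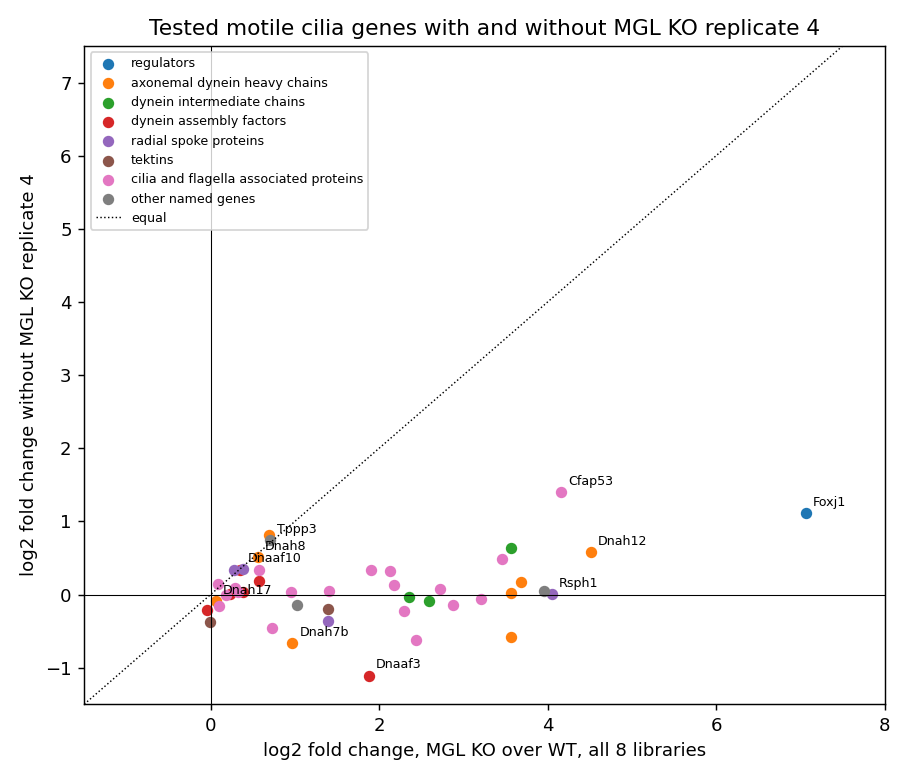
Log2 fold change of MGL KO over WT for the 46 tested motile cilia genes with all 8 libraries (horizontal axis) and without MGL KO replicate 4 (vertical axis), coloured by role, with the dotted line marking equal values. Points spread to 7.06 (Foxj1) on the horizontal axis and stay between -1.11 and 1.40 on the vertical axis.

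Related gene lists showed what accompanied the motile cilia genes in MGL KO replicate 4. Of 45 other genes of motile cilia that the naming rule does not reach, such as Ak7, Drc1, Spag16 and Dnali1, 28 met the 10-fold line. All 45 summed to 1090 CPM against 217 to 362 CPM in the other libraries. Mlf1, the most abundant of the 45, went the other way, with 113 CPM in MGL KO replicate 4 against 120 to 263 CPM elsewhere. Of the 20 tested, 19 had a log2 fold change above 0, with a median of 1.48, and none was called. Spag16, a central apparatus gene, had 36.5 CPM in MGL KO replicate 4 and at most 0.0657 CPM elsewhere. Of 38 genes of the primary cilium and of intraflagellar transport, which most cell types use, none met the line. Their sum was 1120 CPM against 629 to 658 CPM, 33 of the 38 had a log2 fold change above 0 (median 0.26), and none was called. Traf3ip1, a transport subunit, was farthest from the rest, with 93.1 CPM against 10.2 to 12.5 CPM.

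Markers of airway secretory cells moved with the motile cilia genes. Of the 11 listed, which were chosen with earlier results of these data known, 10 met the 10-fold line in MGL KO replicate 4. None was at 0 there, and the 11 summed to 12500 CPM against 80.5 to 202 CPM in the other 7 libraries. Bpifa1, an airway secretion protein, had 2570 CPM, Scgb1a1, the defining product of club cells, had 2220 CPM, and Ltf, lactoferrin, had 1970 CPM, against at most 18.9 CPM in any other library for each of them. The 6 alveolar markers summed to 196 CPM against 1.58 to 40.2 CPM. Within that list the surfactant genes Sftpd and Sftpa1 had 121 and 70.3 CPM, while Sftpc and Ager, the defining genes of alveolar cells, had 3.88 and 0.674 CPM. Of 7 thyroid markers, only Nkx2-1, a factor shared with airway epithelium, met the line, at 29.3 CPM, and the list summed to 38.6 CPM against 4.6 to 12.9 CPM. The 7 cartilage markers summed to 6.46 CPM against 2.35 to 4.35 CPM. Of 11 spermatid markers, 9 were at 0 in MGL KO replicate 4, and the sum of 0.225 CPM lay within the 0.0571 to 1.04 CPM of the other libraries. The skeletal muscle sum was lowest in that library, at 36500 CPM against 46700 to 92500 CPM, and the squamous sum of 10400 CPM lay inside the range of the others. The part of these cells in the motile cilia result was not tested.

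**Figure D5:**
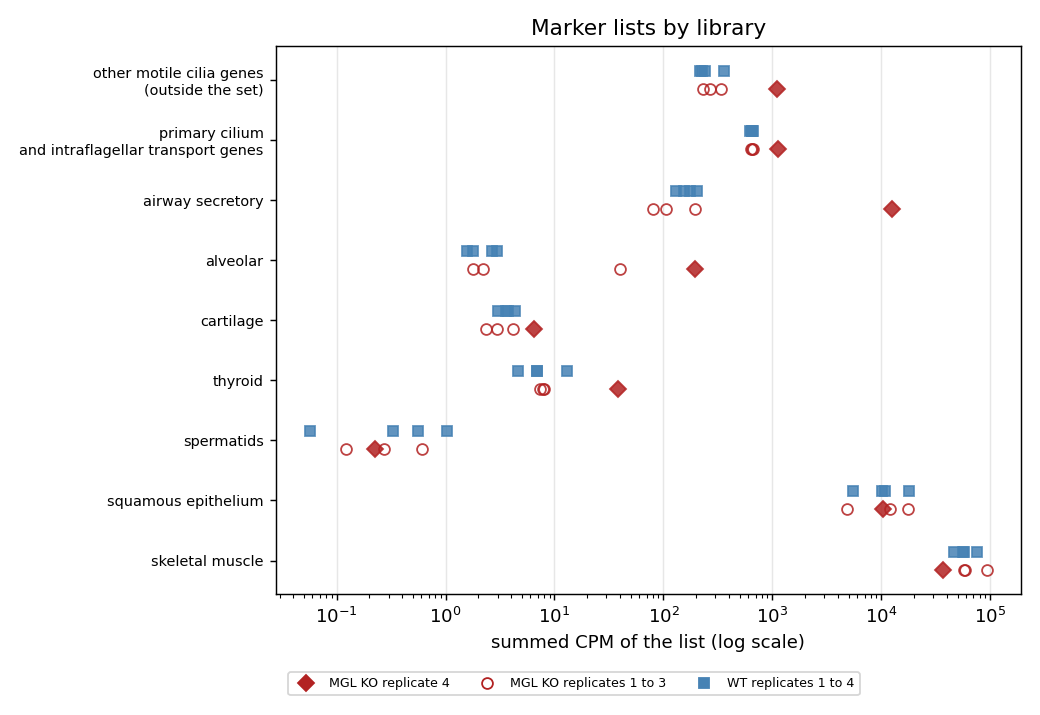
Summed CPM of each marker list (rows; horizontal axis on a log scale) in the 8 libraries, with MGL KO replicate 4 as filled diamonds, MGL KO replicates 1 to 3 as open circles and WT as squares. MGL KO replicate 4 exceeds the others by the most for the airway secretory list (12500 against at most 202 CPM), and the open circle at 40.2 CPM in the alveolar row is MGL KO replicate 1.

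MGL KO replicate 1 held faint traces of some of the same genes. It was the highest of the other 7 libraries for 19 of the 48 genes, as were MGL KO replicates 2 and 3 for 7 and 6 of them and a WT library for 14. Dnaaf6b and Rsph14 had no count in any of the 7. Foxj1 had 27 counts in it, Cfap65 had 19 and Ttc21a had 18, where the remaining 6 libraries were at or under 0.925, 0.131 and 0.432 CPM. Scgb1a1 stood at 18.9 CPM and Bpifa1 at 12.5 CPM in MGL KO replicate 1, against at most 1.88 and 0.18 CPM in those 6 libraries. Alveolar Sftpc was instead highest in MGL KO replicate 1, at 25.6 CPM against 3.88 CPM in MGL KO replicate 4 and at most 0.196 CPM in the remaining libraries.

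Counting limits touch single genes. The counting tool and its use of strand are not given in the sources used here, and 21 of the 86 motile cilia genes found in the annotation share at least 10% of their exon bases with another gene, 12 of them with a protein-coding gene. On the opposite strand, Cfap410 lies over Pfkl for 57.9% of its exon bases, Rsph9 over Mrps18a for 25.8% and Dnaaf1 over Taf1c for 21.6%. On the same strand, Dnaaf3 shares 17.6% of its exon bases with Tnni3. The counts of these genes are uncertain.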

How the data were processed

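The authors trimmed adapters with cutadapt, checked reads with FastQC 0.11.9, aligned them to GRCm39 with STAR 2.7.10b (submitters' processing notes) and deposited whole-number counts per gene symbol and library, without normalization. All 8 columns belonged to the study. Which NovaSeq model read each library is not given in the sources used here. The motile cilia genes and the marker lists were chosen with earlier results of these data known.

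Genes were kept by filterByExpr (edgeR 4.0.16, R 4.3.3) at a minimum count of 10. CPM used library sizes over kept genes and TMM factors, also for genes not kept. The quasi-likelihood test of edgeR compared the groups, with Benjamini-Hochberg adjustment over all genes tested and a threshold of 0.05. The standard error of a log2 fold change was its size over the root of the F statistic. DESeq2 1.42.0, edgeR's exact test and limma-voom (limma 3.58.1) were alternatives, and the fits were tested on simulated data. No libraries of a group were alike within sampling noise.

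Genes named were the 10 given by symbol, in each family the 3 with the highest CPM per kilobase, the 8 with the highest median CPM, sperm tail genes, listed heavy chains, and among genes tested the 3 with the highest and the 3 with the lowest log2 fold change. Others were named after their values were seen, among them Dnah1, Dnah2, Dnah3, Dnah14, Cfap43, Cfap44, Cfap46, Cfap57, Cfap61, Cfap74, Cfap99, Cfap410, Dnai4, Dnaaf6b, Rsph3a, Rsph9 and Rsph14. Positions and promoters were read from GRCm39 with GENCODE vM39.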

Additional observations from a re-analysis of the deposited data

Results flagged for a closer look

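A library stood far from the other 3 of its group in 46 of 106 groups of 4 values compared, by Dixon's test at the 95% level. Chance gives about 1 in 20 where groups are independent and freely chosen. Here the sums reuse the genes, and part of the genes were named for their highest level or log2 fold change, which MGL KO replicate 4 set, so the number of groups is not evidence of its own. The far library was MGL KO replicate 4 in 39 groups, and it was the highest of its group in each. Its values were, in CPM, for the regulators Foxj1 at 228, Mcidas at 1.07 and Ccno at 2.3. For the heavy chains they were Dnah10 at 121, Dnah5 at 89.1, Dnah6 at 87.4, Dnah9 at 68.6, Dnah11 at 20.3, Dnah7a at 6.97, Dnah7b at 8.94, Dnah7c at 7.81 and Dnah12 at 42.9, and for the intermediate chains Dnai3 at 29.8, Dnai2 at 46.1 and Dnai1 at 16.5. Among assembly factors, radial spoke proteins and tektins they were Dnaaf3 at 19.3, Dnaaf1 at 20.8, Rsph1 at 72.4, Rsph4a at 44.3, Tekt1 at 20.3, Tekt4 at 19.3 and Tekt3 at 3.03. Among the cilia and flagella associated proteins they were Cfap65 at 150, Cfap126 at 30.3, Cfap206 at 36.1 and Cfap53 at 24.3, and among the other genes Lrrc23 at 62.4, Ttc21a at 94.5, Hydin at 60.4, Ccdc39 at 38.2, Ccdc40 at 64.5 and Spag6l at 29.5. The sums that stood far from the group were the axonemal dynein heavy chains at 604, the cilia and flagella associated proteins at 975, the dynein assembly factors at 165, the dynein intermediate chains at 124, the regulators at 231, the tektins at 45.6 and all motile cilia genes together at 3440 CPM. In WT, 4 of the values rested on 1 or 2 counts with none in the other 3 libraries, which is within the 3 counts that a count of 0 allows: Hydin, Cfap206 and Tekt4 at 0.112 CPM in WT replicate 1, and Dnah9 at 0.0571 CPM in WT replicate 2. WT replicate 1 was far from the rest for Tekt5 at 0.837 CPM. WT replicate 3 was far from the rest for Cfap126 at 3.22 and Tekt3 at 0.329 CPM.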

How the results depend on the processing

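The count of all genes called was 7 and moved with the test. It was 42 by the exact test without a filter, 65 by the exact test on filtered genes, 137 by DESeq2 and 25 by limma-voom with sample quality weights. It was 2 with the robust fit, without a filter, with at least 10 counts in any 1 library and at an adjusted p under 0.01. Leaving out 1 library at a time gave 2 to 5, and 6 without MGL KO replicate 4 on all genes with a count. The settings chosen after seeing the data gave 146 for DESeq2 without MGL KO replicate 4, 57 for the exact test without MGL KO replicate 4, 169 with common and then tagwise dispersions, 133 with these and library size alone, and 59 with these without MGL KO replicate 4. Motile cilia genes called were 0 in every planned fit except DESeq2, which called 1 (Tppp3) with and without MGL KO replicate 4, and were 20 and 16 with common and then tagwise dispersions, by TMM and by library size alone.

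The median log2 fold change of the motile cilia genes, 1.39, was 0.03 to 1.71 when 1 library was left out, and only leaving out MGL KO replicate 4 took it under 1.36. With all genes with a count it was 3.18 by the exact test, 3.21 with no filter, 3.19 and 3.32 with common and then tagwise dispersions by TMM and by library size alone, and 0.05 in each fit without MGL KO replicate 4, as by DESeq2 without it. It was 3.23 with at least 10 counts in any 1 library, 0.58 when all 8 libraries had to reach 10 counts, and 0.35 by limma-voom. The log2 ratio of the summed CPM was 1.16, and 0.56 to 1.33 when 1 library was left out.

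For the named genes that passed the filter, 555 alternative values kept sign and side of the threshold and 9 passed the threshold. DESeq2 took Tppp3 past it with and without MGL KO replicate 4, and common and then tagwise dispersions took Foxj1, Dnai2, Cfap53 and Dnah12; the other 16 genes that setting called had not passed the filter or were not named by the rule. The sign turned 52 times. Without MGL KO replicate 4 the log2 fold change was -0.14 for Ccdc39, -0.16 for Cfap20, -1.11 for Dnaaf3, -0.66 for Dnah7b, -0.09 for Dnai1 and -0.20 for Tekt1, their lowest values when 1 library was left out, where the highest were 1.31, 0.29, 2.26, 1.31, 3.0 and 1.78. Dnah17 was at -0.09. By DESeq2 without that library it was -0.13 for Ccdc39, -0.05 for Dnai1, -1.10 for Dnaaf3, -0.19 for Tekt1, -0.15 for Cfap20, -0.08 for Dnah17 and -0.65 for Dnah7b. With all genes with a count and without that library it was -0.08 for Dnai1, -0.21 for Tekt1 and -0.00094 for Rsph1. By limma-voom it was -0.28 for Dnaaf3, -0.07 for Dnah17, -0.12 for Dnah7b, -0.13 for Dnai1 and 0.02 for Tekt2. Leaving out 1 library gave -0.21 to 0.14 for Dnaaf8, -0.09 to 0.23 for Dnah17, -0.03 to 0.44 for Rsph3b and -0.37 to 0.26 for Tekt2. The cause of these changes was not tested.

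With the replicate number as a replicate block, 2 genes and 0 motile cilia genes were called, the median log2 fold change of the motile cilia genes was 0.66 and Dnaaf3 stood at -0.14. The numbers only name libraries: over 14864 genes, same-numbered libraries deviated from their group means with correlations of -0.137, -0.28, -0.142 and 0.0789.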
